A study of Mus musculus with 18 samples.

Results

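The 5 miRNAs described here, mmu-miR-5099, mmu-miR-5126, mmu-miR-3968, mmu-miR-3963 and mmu-miR-2137, are the most abundant entries numbered 1900 or higher in a table of 1390 mouse mature miRNAs, which holds 664 further entries in that number range. They were chosen by their mean normalized count over all 18 libraries, so their abundance describes the selection and was not tested. Small RNA was sequenced from the inner cell mass (ICM, the pluripotent cells of the blastocyst), from its outgrowths after 0.5, 1, 2, 3 and 5 days, and from embryonic stem cells (ESC) that grew from them, with 2 libraries in each of 9 groups. ICMs of E3.5 blastocysts of NMRI mice were freed by immunosurgery, an antibody and complement lysis of the outer cells, and all cultures were kept on gelatin in N2B27 medium with LIF and R2i. R2i is a pair of inhibitors, PD0325901 against MEK and SB431542 against TGF-beta and activin receptors, and the outgrowths and ESC share it while the ICM was collected fresh. No group was left untreated in culture, so the effect of R2i itself cannot be told apart from time in culture.

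The ESC groups are named here by their description codes P15, P2 and P4, because the sample titles give passage 2 for code P15, passage 4 for code P2 and passage 15 for code P4. No order of passages was therefore used. No label says that the 2 libraries of a group came from separate embryos or cultures, so p-values measure only the spread between these libraries, which may be technical.

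A mature miRNA is a short RNA cut by Drosha and Dicer from a hairpin precursor and loaded into an Argonaute protein. Bases 2 to 8 of the mature strand, the seed, pair with target messenger RNAs. In miRBase, numbers were given roughly in order of entry, and most high-numbered entries were added from deep sequencing. Mouse ICM and ESC are known for the miR-290 cluster, whereas little is established about the function of the 5 miRNAs in these cells.

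The mature sequences are shown because the members move in different ways and only some of them resemble each other. They were taken from RefSeq on GRCm38.p6, run 5′ to 3′, and have the seed in capitals. Of the 5 members, 4 were matched to a mature sequence there.
mmu-miR-5126: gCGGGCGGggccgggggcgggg
mmu-miR-3968: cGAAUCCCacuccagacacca
mmu-miR-3963: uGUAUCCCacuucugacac
mmu-miR-2137: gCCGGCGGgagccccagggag

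For mmu-miR-5099 the precursor hairpin of 74 bases is given, from chr12:36816205-36816278 on the plus strand.
Mir5099 hairpin: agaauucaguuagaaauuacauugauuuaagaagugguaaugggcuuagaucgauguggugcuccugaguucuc

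None of these 4 seeds was shared with any other of the 1166 table entries that have a RefSeq mature sequence. The seeds of mmu-miR-5126 and mmu-miR-2137 are the same at 6 of 7 positions and differ by G3C, with mmu-miR-5126 as the reference and positions counted from the 5′ end of the mature strand. Both are rich in G and C. The 22 bases of mmu-miR-5126 are 100% G or C, a content above that of 99.9% of the 1166 entries, and mmu-miR-2137 holds 85.7%, above 99.3% of them. By comparison mmu-miR-3968 holds 57.1% and mmu-miR-3963 47.4%, beside a median of 52.4% over all 1166.

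The mature strands of mmu-miR-3968 and mmu-miR-3963 are similar along their length. Aligned from their first base with no gap, 15 of 19 positions are identical, shown here in capitals.
mmu-miR-3968: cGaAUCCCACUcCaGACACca
mmu-miR-3963: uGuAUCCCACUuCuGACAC

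The 4 differences, with mmu-miR-3968 as the reference, are C1U, A3U, C12U and A14U, so each is a U in mmu-miR-3963. mmu-miR-3968 is 21 bases long and ends in CCA, the letters that end mature tRNAs. Of the 1166 mature sequences, 584 are numbered 1900 or higher. Among all 1166, 17 end in CCA, 12 of them numbered 1900 or higher. The letters AUCCCA, which both members hold from position 4 on, occur on this strand in 7 of the 1166, 6 of which are numbered 1900 or higher.

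The genes lie apart in the mouse genome (GRCm38.p6, annotation GENCODE M21). Mature mmu-miR-5126 is at chr1:84695890-84695911 on the plus strand, within exon 1 of Dner but on the opposite strand, in the UTR part of that exon. Mature mmu-miR-3968 is at chr11:115447969-115447989 on the minus strand, opposite to coding exon 8 of Trim80. Mature mmu-miR-2137 is at chrX:72992113-72992133 on the plus strand, in an intron of Zfp185 on the same strand. mmu-miR-3963, at chr3:151023839-151023857 on the minus strand, and the Mir5099 hairpin overlap no other annotated gene. The annotated genes of the similar pair mmu-miR-3968 and mmu-miR-3963 thus lie on different chromosomes.

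Folded with RNAfold, the mmu-miR-5126 hairpin had a minimum free energy of -0.63 kcal/mol per base, stronger than 96.7% of 1005 miRNA hairpins folded alike. The median was -0.42 over 1095 table entries placed in a hairpin, where a hairpin counts once for each such entry. The mmu-miR-3968 hairpin had -0.29, and 9.05% of hairpins folded more weakly. The mmu-miR-3963 hairpin had -0.32, with 16.3% weaker, and Mir5099 and Mir2137 had -0.36 and -0.37, with 30.8% and 35.5% weaker. Each mature sequence was searched for at full length among 141767 annotated transcripts. Beyond its own gene it was found only antisense to Dner or Trim80. Shorter runs were shared with annotated noncoding RNAs, the longest being 13 bases of mmu-miR-3963 in the small nuclear RNA Gm22558. How long such runs are for other entries was not counted. Nuclear tRNAs and the ribosomal precursor were not analysed here.

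Values are the deposited whole numbers, taken here as normalized counts, a unit that no label states. Library totals ran from 602238 to 1265117 normalized counts. In 10 libraries, those of the ICM and of days 0.5 to 3, the spacing of the values gave 110741 to 370150 reads, and in the 8 others, day 5 and ESC, the lowest listed values place the depth between 2322100 and 9063810 reads. Depth and stage therefore coincide. The members stand well above the floor: their lowest value corresponds to 125 reads (mmu-miR-2137, day 3, replicate 1), with a Poisson error of 8.95%. Poisson errors cover counting error only, as reads without molecular identifiers are not independent molecules. In bulk RNA, fewer cells of a type and less RNA per cell cannot be told apart.

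Marker miRNAs were checked against the labels. The 12 miRNAs listed for pluripotent cells made up 14.8% to 16.8% of the ICM libraries, 6.21% to 13.8% of the outgrowths and 8.75% to 14.5% of the ESC, and miR-292-5p of that list had 16837 to 53924 normalized counts. All 5 fibroblast and smooth muscle miRNAs were listed in the table and made up 0.0283% to 0.256%, led by miR-143-3p with 143 to 2375. The 4 blood miRNAs matched of 5 made up 0.354% to 0.425% of the ICM and 0.0462% to 0.0712% of the ESC libraries, led by miR-486-5p with 57 to 2558. The outgrowths had 0.0361% to 0.311% of them. miR-122-5p of liver was at 0 in every ICM and ESC library and at most at 9. The blood list had a lower share in ESC than in ICM, as did the 5 members summed, and its part in their change was not tested.

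mmu-miR-5099 had the highest mean of the 5, 19081 normalized counts, rank 7 of all 1390 entries. It also varied least, 4.27-fold from its lowest to its highest library. The ICM libraries had 7521 and 17975 normalized counts, a 2.39-fold difference between replicates that was its widest. Day 0.5 had 23271 and 31937, day 1 had 31458 and 32102, day 2 had 9837 and 13328, day 3 had 26598 and 18086, and day 5 had 19071 and 22607. The ESC had 19351 and 19733 at P15, 10681 and 11022 at P2, and 17737 and 11150 at P4. The lowest day 1 library lay above every library except those of day 1 and replicate 2 of day 0.5, and the 4 lowest group means (P4, ICM, day 2, P2) overlapped from one to the next. It took 1.23% to 4.80% of each library.

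mmu-miR-5126 covered the widest range, 66.5-fold. The ICM libraries had 11241 and 11882 normalized counts and those of day 0.5 had 40560 and 66294, where its rank among all entries was as high as 2. Day 1 had 14900 and 17534, day 2 had 6930 and 5775, day 3 had 5162 and 3647, and day 5 had 2260 and 2548. The ESC had 7273 and 8759 at P15, 997 and 1116 at P2, and 2388 and 1501 at P4. Ordered by mean (day 0.5, day 1, ICM, P15, day 2, day 3, day 5, P4, P2), neighbouring groups overlapped only between day 5 and P4.

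mmu-miR-2137 fell into high and low libraries. The ICM had 6564 and 4161 normalized counts, day 0.5 had 17870 and 21116, and day 1 had 10831 and 10619. Day 2 had 938 and 756, day 3 had 601 and 883, and day 5 had 1427 and 1227. Among the ESC, P15 had 4579 and 5547, P2 had 841 and 841, and P4 had 865 and 820. Every library of ICM, day 0.5, day 1 and P15 was thus at 4161 or more and every other library at 1427 or less.

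mmu-miR-3968 and mmu-miR-3963 went through the groups in the same order. mmu-miR-3968 had 10458 and 12599 normalized counts in ICM, 16380 and 29182 at day 0.5, 9240 and 11444 at day 1, 13625 and 10954 at day 2, 11825 and 6170 at day 3, and 2747 and 3627 at day 5. Its ESC values were 5091 and 6188 at P15, 648 and 716 at P2, and 5026 and 3350 at P4. Day 0.5 was highest and P2 lowest, each apart from all other groups, while ICM, day 1, day 2 and day 3 overlapped.

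mmu-miR-3963 had 7717 and 9513 normalized counts in ICM, 14244 and 25563 at day 0.5, 7141 and 8818 at day 1, 10540 and 7866 at day 2, 8678 and 4566 at day 3, and 2228 and 2931 at day 5. Its ESC values were 3976 and 4978 at P15, 499 and 550 at P2, and 3518 and 2414 at P4. Where replicates of mmu-miR-3968 differed, up to 1.92-fold, those of mmu-miR-3963 differed the same way, up to 1.90-fold.

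**Figure D1:**
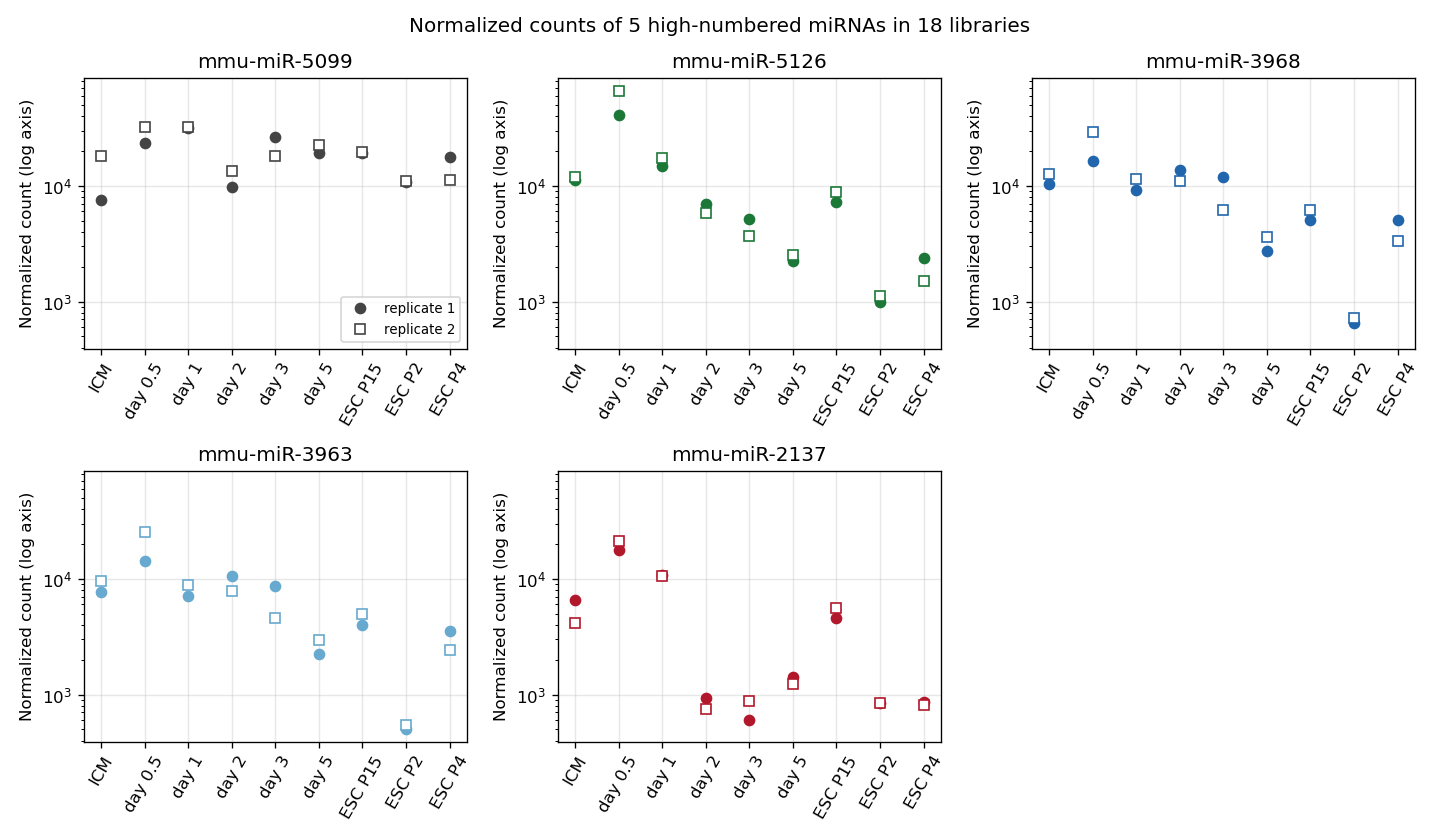
Normalized count (log axis) of each of the 5 miRNAs in the 9 groups, with filled circles for replicate 1 and open squares for replicate 2. mmu-miR-5099 stays between 7521 and 32102, mmu-miR-5126 spans 997 to 66294, and mmu-miR-2137 has no value between 1427 and 4161.

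Together the 5 took 7.22% and 8.97% of the ICM libraries and 17.6% and 23.1% of the day 0.5 libraries. The share was 10.7% and 12.0% at day 1, between 4.70% and 5.47% at days 2 and 3, and 3.98% and 4.21% at day 5. ESC had 3.38% and 3.57% at P15, 1.75% in both P2 libraries, and 2.44% and 2.12% at P4. All other entries numbered 1900 or higher together took 11.3% and 9.88% in the ICM, more than the 5, and 6.05% and 8.36% at day 0.5, less than the 5. The day 0.5 libraries thus gave the largest share to the 5 members, and no other group overlapped them. This peak of the summed share was not tested, because the members were chosen by a mean that the high day 0.5 values raise. The same limit holds for the tests of single members below that use day 0.5 libraries.

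**Figure D2:**
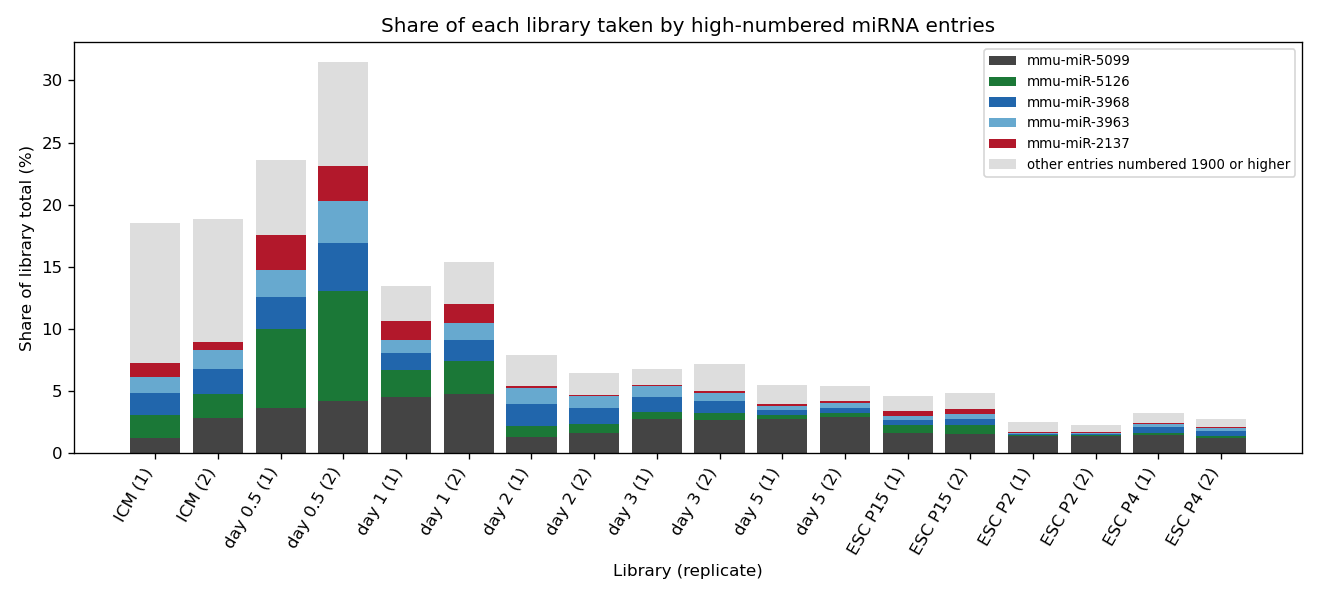
Share of each library total (%) taken by the 5 miRNAs, stacked, and in grey by all other entries numbered 1900 or higher, in the 18 libraries. The 5 reach 17.6% and 23.1% at day 0.5 and are at 1.75% in both P2 libraries, and the grey part is largest in the ICM.

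Just outside the selection stood mmu-miR-5130, with a mean of 4060 normalized counts against 5027 for mmu-miR-2137, then mmu-miR-6412 with 1521 and mmu-miR-6240 with 1218. Ranked over the ICM libraries alone, mmu-miR-5130 would enter the 5, with an ICM mean of 17676 and an ESC mean of 222. By the median over libraries mmu-miR-6412 would enter. Ranking by mean share, or over outgrowths or ESC alone, gave the same 5.

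From ICM to ESC, 4 of the 5 members fell. This comparison asks which miRNAs differ between the embryo's own pluripotent cells and the stem cells that arise from them. mmu-miR-5126 was lower in ESC by 2.20 ± 0.22 on the log2 scale (SE), a 4.59-fold fall, with a limma adjusted p of 5.50e-06. mmu-miR-3968 changed by -2.20 ± 0.28 (limma adjusted p = 4.07e-05), mmu-miR-3963 by -2.18 ± 0.28 (4.77e-05) and mmu-miR-2137 by -1.77 ± 0.19 (9.25e-06). Of all 811 miRNAs tested, 23.7% were called lower, and the median change over all was 0.01. All 6 ESC libraries lay below both ICM libraries for mmu-miR-5126, mmu-miR-3968 and mmu-miR-3963. How many of all tested miRNAs were so separated was not counted, so it is no result about the members. For mmu-miR-2137 the P15 libraries, 4579 and 5547, overlapped the ICM.

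mmu-miR-5099 gave 0.31 ± 0.30 from ICM to ESC and was not called (limma adjusted p = 0.393). Its direction depended on the scaling, with -0.41 when all libraries were set to the same total and -0.25 after quantile normalization. Without ICM replicate 1 the value was -0.32, and without ICM replicate 2 it was 0.94 with a limma adjusted p of 0.0158. The other 279 tested entries numbered 1900 or higher had a median change of -2.16, with 103 called lower and 20 higher, beside -2.18 for the median of the 5. The 527 tested entries numbered below 1900 had a median of 1.27. The calls of the 4 members held without each of the 18 libraries in turn.

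Outgrowths averaged over all 5 time points differed from ICM in 2 members, 1 in each direction. mmu-miR-5099 was higher by 0.88 ± 0.28 (limma adjusted p = 0.0319), where 16.3% of all tested miRNAs were called higher. mmu-miR-2137 was lower by 0.90 ± 0.18 on the log2 scale (limma adjusted p = 0.0022), where 18.6% were called lower. The median over all was -0.31. The mmu-miR-5099 call was lost without ICM replicate 1 (0.25, adjusted p = 0.441), without replicate 2 of day 2 (0.0505) and without replicate 2 of day 5 (0.054). With limma's array weights neither was called. mmu-miR-5126, mmu-miR-3968 and mmu-miR-3963 gave -0.38, -0.29 and -0.21 and were not called (limma adjusted p = 0.177, 0.39 and 0.527). With all libraries set to the same total the calls changed members: mmu-miR-5126 was called at -0.65 and mmu-miR-3968 at -0.56 (limma adjusted p = 0.00284 and 0.0274), and mmu-miR-5099 was not (0.61, adjusted p = 0.0525). This average joins the high day 0.5 and the low day 5 libraries.

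ESC were below outgrowths in all 5 members. The change was -1.82 ± 0.14 for mmu-miR-5126, -1.91 ± 0.18 for mmu-miR-3968 and -1.97 ± 0.18 for mmu-miR-3963 (limma adjusted p = 6.47e-07, 3.37e-06 and 2.99e-06). It was -0.87 ± 0.12 for mmu-miR-2137 and -0.57 ± 0.19 for mmu-miR-5099 (limma adjusted p = 8.93e-05 and 0.0237). Over all tested miRNAs 19.9% were called lower and the median was 0.28. The mmu-miR-5099 call was lost without either P15 library, either P2 library or replicate 2 of P4 (adjusted p 0.0517 to 0.0836). Single outgrowth groups overlapped the ESC range for each member.

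**Figure D3:**
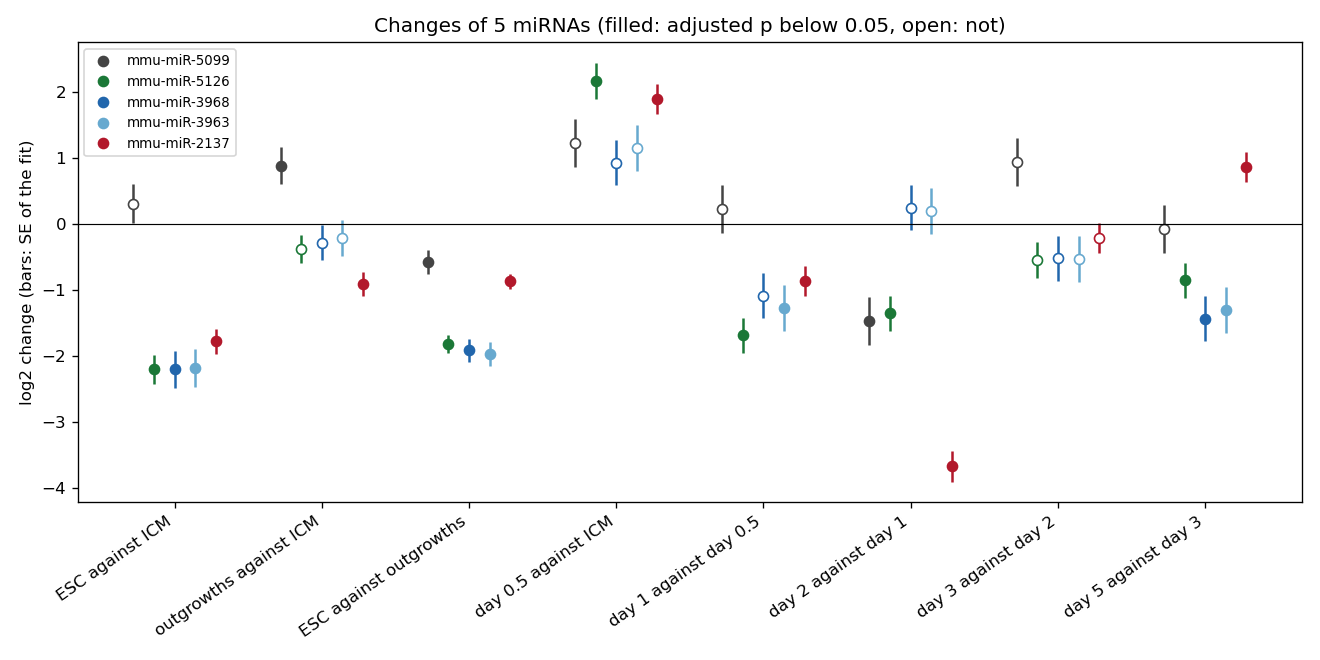
log2 change with SE of the limma fit for the 5 miRNAs in 8 comparisons, with filled points for an adjusted p below 0.05. The deepest point is mmu-miR-2137 from day 1 to day 2 at -3.67, and mmu-miR-5099 lies apart from the other 4 in ESC against ICM at 0.31.

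Within the first 12 hours of culture (day 0.5 against ICM), 2 members rose. mmu-miR-5126 was 4.49-fold higher, 2.17 ± 0.27 on the log2 scale, with a limma adjusted p of 1.67e-04. mmu-miR-2137 was 3.72-fold higher, 1.89 ± 0.23, with a limma adjusted p of 1.55e-04. Of all tested miRNAs 8.01% were called higher. The day 0.5 values helped to select the members, so these p-values and the count of members called are descriptive only. In both directions 92 were called, and 168 without ICM replicate 2. Both day 0.5 libraries exceeded both ICM libraries in all 5 members. The share of all tested miRNAs separated in this way was not counted, so it is no result about the members. mmu-miR-5099 (1.23 ± 0.36), mmu-miR-3963 (1.16 ± 0.35) and mmu-miR-3968 (0.93 ± 0.34) were not called (limma adjusted p = 0.0541, 0.0549 and 0.121). The mmu-miR-5099 value rested on the ICM replicates, with 0.60 without replicate 1 (limma adjusted p = 0.282) and 1.86 without replicate 2 (0.00151). mmu-miR-5099 and mmu-miR-3963 passed under several alternatives. With array weights no member was called (limma adjusted p = 0.163 for mmu-miR-5126, in a range of 9.21e-07 to 0.163 over the alternatives that keep all libraries, and 0.0528 for mmu-miR-2137, in a range of 1.59e-04 to 0.0528).

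From day 0.5 to day 1, 3 members fell, in a comparison that again uses the day 0.5 values that helped to select them. mmu-miR-5126 changed by -1.68 ± 0.27, mmu-miR-3963 by -1.27 ± 0.35 and mmu-miR-2137 by -0.86 ± 0.23 (limma adjusted p = 0.00135, 0.0297 and 0.0276), where 10.5% of all tested miRNAs were called lower. In both directions 123 were called, but 66 without replicate 2 of day 0.5 and 63 without replicate 1 of day 1. mmu-miR-3968 gave -1.09 ± 0.34 and missed the threshold (0.054), and mmu-miR-5099 gave 0.22 ± 0.36 (0.804). mmu-miR-3968 passed with a pseudocount of 10 (limma adjusted p = 0.0437), with the same total (0.00811) and after quantile normalization (0.0131), and also without replicate 1 of day 0.5 (-1.50) or either day 3 library (0.0304 to 0.0322). The mmu-miR-2137 call was lost with the same total (limma adjusted p = 0.129), without limma's options (0.0883) and when any 1 of the 4 libraries compared was left out (0.0553 to 0.145). The mmu-miR-3963 call was lost without replicate 2 of day 0.5 or either day 1 library (0.0583 to 0.203). With array weights no member was called.

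Day 2 differed from day 1 most in mmu-miR-2137, which fell 12.7-fold, a log2 change of -3.67 ± 0.23 (limma adjusted p = 2.17e-06). From 10831 and 10619 normalized counts it went to 938 and 756. mmu-miR-5099 and mmu-miR-5126 fell by 1.47 ± 0.36 and 1.35 ± 0.27 (limma adjusted p = 0.0252 and 0.00759). These 3 calls compare with 6.78% of all tested miRNAs called lower, where the 88 called in both directions became 53 without replicate 2 of day 1. mmu-miR-3968 and mmu-miR-3963 gave 0.25 and 0.20 (0.829 and 0.96), with values between 7141 and 13625 on both days. The mmu-miR-2137 call held without each library in turn. That of mmu-miR-5099 was lost without any 1 of the 4 compared (adjusted p 0.0546 to 0.146), and that of mmu-miR-5126 without replicate 2 of either day (0.0601 and 0.0568).

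No member was called between day 2 and day 3 by limma, with or without its trend and robust options, and 1 of the 5 had an unadjusted p below 0.05. Of all tested miRNAs 4.07% were called in either direction, 33 in number, with 50 without ICM replicate 1, 20 without replicate 2 of day 2 and 60 without replicate 2 of day 3. From day 3 to day 5 mmu-miR-3968, mmu-miR-3963 and mmu-miR-5126 fell by 1.44 ± 0.34, 1.3 ± 0.35 and 0.85 ± 0.27 (limma adjusted p = 0.0133, 0.0239 and 0.0478), where 6.17% of all were called lower. mmu-miR-2137 rose by 0.86 ± 0.23 (limma adjusted p = 0.0239), where 12.2% were called higher. The 149 called in both directions became 96 and 85 without replicate 1 and 2 of day 5. Day 3 libraries come from the shallow and day 5 libraries from the deep sequencing, so depth and time cannot be told apart in this step. The mmu-miR-5126 call was lost without any 1 of 13 libraries (adjusted p 0.0534 to 0.299). The mmu-miR-3968 call was lost without replicate 1 of day 3 or of day 5 (0.125 and 0.107), as were those of mmu-miR-3963 and mmu-miR-2137, which were also lost without replicate 2 of day 5 (0.0583 and 0.0639). The mmu-miR-2137 call was lost with the same total (limma adjusted p = 0.0664) and that of mmu-miR-3963 after quantile normalization (0.116).

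Among the 3 ESC groups 4 members differed, and 27.4% of all tested miRNAs did. The limma F-test gave adjusted p-values of 5.06e-06 for mmu-miR-2137, 1.55e-05 for mmu-miR-5126, 5.37e-05 for mmu-miR-3968 and 6.34e-05 for mmu-miR-3963, and 0.254 for mmu-miR-5099. With array weights mmu-miR-5099 was called as well (limma adjusted p = 3.74e-04, in a range of 3.74e-04 to 0.967 over the alternatives that keep all libraries). P15 was highest of the ESC groups in mean for all 5, in normalized count and in share of the library. How many of all tested miRNAs were highest there was not counted, so this is no result about the members. For mmu-miR-2137 P15 had a mean of 5063 ± 684 normalized counts (SD, n = 2) and P2 and P4 had 841 and 843. For mmu-miR-3968 P2 stood apart, with 682 ± 48.1 against 5640 ± 776 at P15 and 4188 ± 1185 at P4, and mmu-miR-3963 had the same order. For mmu-miR-5126 all 3 groups were apart, at 8016 ± 1051, 1945 ± 627 and 1057 ± 84.1 for P15, P4 and P2. Neither label order of the passages, by description or by title, was tested.

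The closest movement was between mmu-miR-3968 and mmu-miR-3963. Across the 18 libraries their log2 values had a Pearson r of 0.998 and a Spearman rho of 0.998. The r was 0.996 over the 10 outgrowth libraries and 0.999 over the 6 ESC libraries. These are descriptions: the points share library, depth and scaling. Of 39340 pairs among the 281 miRNAs with a mean of at least 100, 18 pairs had a higher r, 12 of them entries with equal values in all 18 libraries and the other 6 all within the miR-466 family. The next pair below was miR-130a-3p with miR-130b-3p at 0.989, and the median over all pairs was 0.003. Reads that match more than 1 entry can tie such pairs, and how they were counted is not given in the sources used here.

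The ratio of mmu-miR-3968 to mmu-miR-3963 stayed between 1.14 and 1.43 in all 18 libraries, with a median of 1.3 and a coefficient of variation of 5.99%. The levels meanwhile spanned 45.0-fold and 51.2-fold. The counting error of the ratio was 1.11% to 3.50% per library. The ratio was lowest in the day 0.5 libraries, 1.15 and 1.14, and highest at P4, 1.43 and 1.39. Other pairs of members varied more: mmu-miR-5126 over mmu-miR-3968 ran from 0.437 to 2.48, mmu-miR-5126 over mmu-miR-2137 from 1.19 to 8.59, and mmu-miR-5099 over mmu-miR-3968 from 0.719 to 16.5.

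**Figure D4:**
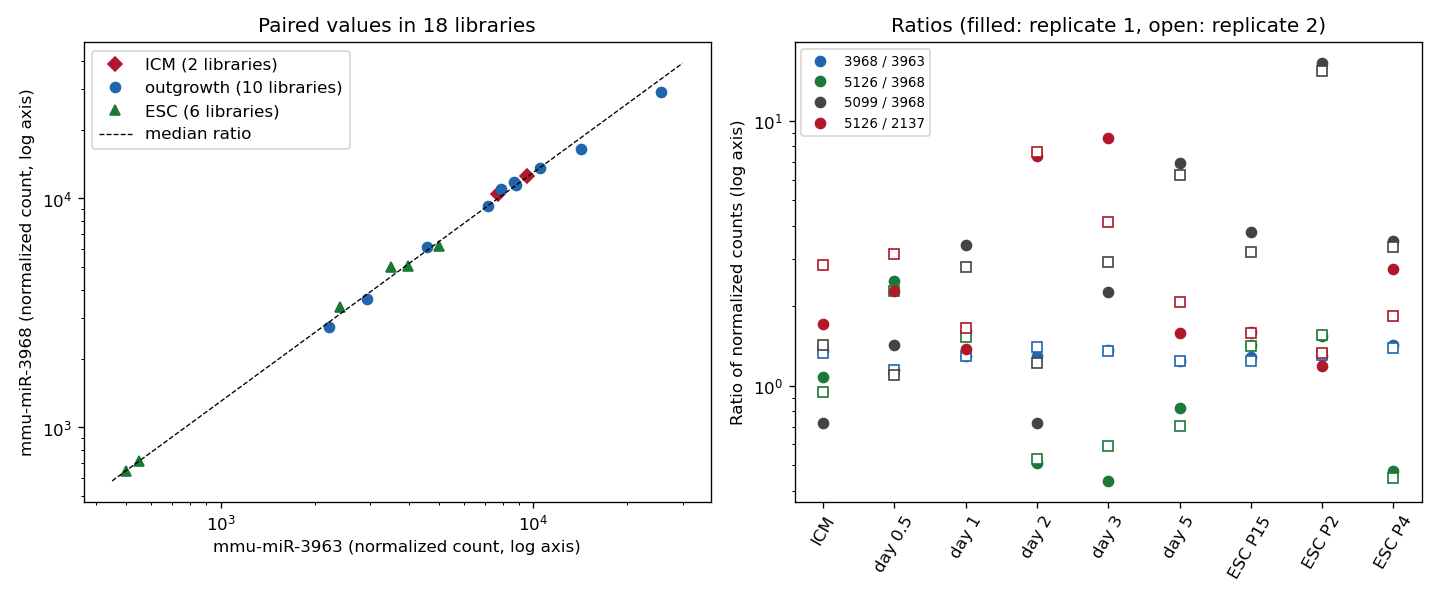
Left, mmu-miR-3968 against mmu-miR-3963 in normalized counts (log axes) for the 18 libraries by stage, with a dashed line at their median ratio of 1.3. Right, 4 ratios between members by group (log axis, filled for replicate 1 and open for replicate 2), of which mmu-miR-3968 over mmu-miR-3963 stays between 1.14 and 1.43.

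The remaining pairs were looser. mmu-miR-5126 had r of 0.888 with mmu-miR-3963, 0.868 with mmu-miR-3968 and 0.866 with mmu-miR-2137 over the 18 libraries. mmu-miR-2137 had 0.551 with mmu-miR-3968 and 0.581 with mmu-miR-3963, and the 2 kinds part at days 2 and 3, where mmu-miR-2137 was low and the similar pair was not. mmu-miR-5099 had 0.433 to 0.527 with the others. Its r with mmu-miR-3968 was 0.169 in outgrowths alone, 0.840 in ESC alone and 0.738 without the 2 libraries farthest from its median, replicate 1 of ICM and of day 2.

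Other miRNAs most like each member were ranked by r over the 18 libraries. For mmu-miR-5126 they were miR-149-3p (0.951), miR-671-3p (0.919) and let-7a-5p (0.902). For mmu-miR-2137 they were miR-1195 (0.882), miR-671-3p (0.873) and mmu-miR-5126. For mmu-miR-3968, after mmu-miR-3963, they were miR-328-3p (0.933) and miR-7091-5p (0.931), and for mmu-miR-3963 let-7a-5p (0.930) and miR-149-3p (0.929). mmu-miR-5099 had no near match, with miR-3960 first (0.680), then miR-1247-5p (0.677) and miR-1247-3p (0.649).

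Of these, miR-149-3p also shares letters with mmu-miR-5126, a run of 9 bases given here in capitals.
mmu-miR-5126: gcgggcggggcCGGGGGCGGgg
mmu-miR-149-3p: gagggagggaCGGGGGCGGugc

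No entry shares 10 or more bases in a row with any of the 4 members that have a mature sequence. miR-149-3p, at chr1:92850421-92850442 on the plus strand, holds 81.8% G and C. It had 636 and 1389 normalized counts in ICM, 1643 and 2696 at day 0.5, and 32 in both P2 libraries. The run was looked for after the values were known.

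mmu-miR-3968 likewise shares 9 bases with miR-5100 and 8 with miR-191-5p, shown in capitals because these 2 entries differ in their course.
mmu-miR-3968: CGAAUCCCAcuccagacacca
mmu-miR-5100: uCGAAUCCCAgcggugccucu
mmu-miR-191-5p: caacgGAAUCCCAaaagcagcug

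miR-5100, at chr11:60728698-60728718 on the plus strand, followed mmu-miR-3968 with an r of 0.925 at a far lower level, 15 to 434 normalized counts. Its lowest libraries were P2, with 15 and 20, where mmu-miR-3968 was also lowest. miR-191-5p, at chr9:108568325-108568347 on the plus strand, had an r of -0.43 and ran from 10055 normalized counts in an ICM library to 279667 in a P15 library. Most entries with a run of 8 or more bases did not follow the member so closely. For mmu-miR-3968 there were 10 such entries, with a median r of 0.23, of which miR-5100 and mmu-miR-3963 were above 0.9. For mmu-miR-5126 there were 5, with r from 0.048 to 0.951, among them miR-762 with a run of 9 bases and an r of 0.523. For mmu-miR-2137 there were 6, with r from -0.24 to 0.608, and for mmu-miR-3963 miR-6419 was the only one beside mmu-miR-3968, with -0.10. Some of these entries had means under 10 normalized counts, where r carries little.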

How the data were processed

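Small RNA of 18 libraries was prepared with a PureLink miRNA kit and TruSeq Small RNA reagents and sequenced on a Genome Analyzer IIx, per the labels' protocols. Each deposited value is a whole-number score per mature miRNA. It was taken as a normalized count from the table's own naming and the spacing of its values, since no label states the unit or how the authors scaled it. The submitters' processing notes name cutadapt, DESeq2 1.30.0 and mm10. Which aligner, counting step and miRNA annotation were used is not given in the sources used here.

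Values were tested as log2(value + 1). Entries reaching 10 in 2 or more libraries were tested, 811 in all, the 5 members among them. A single limma model (version 3.58.1, R 4.3.3, with the robust and trend settings) covered the 9 groups and left 9 residual degrees of freedom. Benjamini-Hochberg adjustment ran over the 811 at a threshold of 0.05. The procedure was also run on simulated data with a single spread, which does not show its error rate on these libraries. Fold changes are on the log2(value + 1) scale, SE is that of the fit, and "called" means past the threshold.

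Reads per library were estimated from the spacing of the values. Where 1 read spans more than the rounding (1.73 to 5.44 normalized counts), 99.4% to 100% of values fell on whole multiples within 0.5. In the other libraries the lowest listed value was taken as 5 reads.

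The members and lists were chosen with earlier results of these data known. Besides the 5 members, the text names for each the 3 miRNAs with the highest Pearson r of log2 values among those with a mean of at least 100, the 3 entries ranking next by mean, and the most abundant of each marker list. miR-149-3p, miR-5100, miR-191-5p, miR-762 and miR-6419 were named for shared letters after their values were seen. Hairpins were folded with RNAfold 2.7.2, and sequences are from RefSeq (GRCm38.p6). Alternatives were other pseudocounts, filters, scalings and limma options, a replicate block, and leaving out each library. Rescaling to the total of entries numbered below 1900 was chosen after seeing the data.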

Additional observations from a re-analysis of the deposited data

How the results depend on the processing

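The calls of mmu-miR-5126, mmu-miR-3968, mmu-miR-3963 and mmu-miR-2137 in ESC against ICM, in ESC against outgrowths and among the ESC groups were the same under every alternative run, as was that of mmu-miR-2137 in day 2 against day 1. Counts of members called moved elsewhere. For outgrowths against ICM the 2 members became 1 with no filter, with quantile normalization and with limma without trend and robust options, 0 with array weights, and 4 when scaled to the total of entries numbered below 1900. For day 0.5 against ICM the 2 became 4 with a pseudocount of 10, a mean of at least 100, the same total or a common floor of 27.2 normalized counts (5 reads in the shallowest library), 0 with array weights and 5 with the below 1900 total. For day 1 against day 0.5 the 3 became 0 with array weights and 1 without limma's options, and for day 5 against day 3 the 4 became 1 without them. Leaving out 1 library gave 1 to 2 members for outgrowths against ICM, 2 to 4 for day 0.5, 1 to 4 for day 1, 1 to 3 for day 2 and 0 to 4 for day 5. The causes were not tested.

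Directions turned only for values that were not called in the main analysis. mmu-miR-5099 in ESC against ICM was -0.41 with the same total, -0.25 with quantile normalization and -0.66 with the below 1900 total (limma adjusted p = 0.0396 in a range of 0.0396 to 0.682). In day 5 against day 3 it was 0.043, 0.079 and 0.020 under these. In day 2 against day 1 mmu-miR-3963 was -0.033 with the same total and -0.15 with the below 1900 total, where mmu-miR-3968 was -0.10. Leaving out 1 library gave ranges across 0 for mmu-miR-5099 in ESC against ICM (-0.32 to 0.94), day 1 (-0.0072 to 0.45) and day 5 (-0.36 to 0.20), for mmu-miR-3963 in day 2 (-0.013 to 0.41) and for mmu-miR-2137 in day 3 (-0.49 to 0.068).

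Of all miRNAs tested, the 448 called in ESC against ICM became 230 with a mean of at least 100 and 250 with array weights. These 2 settings gave 181 and 61 in place of 283 for outgrowths against ICM, and 35 and 57 in place of 123 for day 1. A mean of at least 100 gave 218 in place of 420 for ESC against outgrowths and 69 in place of 149 for day 5. Array weights gave 20 in place of 92 for day 0.5 and 492 in place of 222 among ESC groups, and limma without its options gave 57 in place of 88 for day 2 and 19 in place of 33 for day 3. The median change of all tested in ESC against ICM was 0.01, and -0.48, 0.07 and -0.73 with the same total, quantile normalization and the below 1900 total. Calls that were higher made up 57.1%, and 45.4% with the last. For ESC against outgrowths they were 61.7%, and 51.1% with the same total and 45.1% with the below 1900 total. For day 1 they were 30.9%, and 47.4% with quantile normalization and 17.3% with the below 1900 total. For day 2 they were 37.5%, and 22.1% with the same total and 19.5% with the below 1900 total. For day 3 they were 51.5%, and 65.6%, 63.2% and 67.9% with the 3 scalings. For day 5 they were 66.4%, and 52.7% with quantile normalization.

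Replicate differences were little correlated between groups (36 pairs of groups, median r -0.01, from -0.36 to 0.245, with 3 pairs above 0.1). No label says what the replicate numbers stand for, so a shared origin of same-numbered libraries cannot be told from these values. With a replicate block the count of members called was 3 in place of 4 in day 5 against day 3, where mmu-miR-5126 had an adjusted p of 0.0665 by limma, and unmoved elsewhere. Entries near the floor are coarse in the shallow libraries, and the members hold at least 125 reads.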
